A study of Mus musculus with 8 samples.

Results

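Transcripts of the nuclear-encoded subunits of the mitochondrial respiratory chain and of ATP synthase were measured in group 2 innate lymphoid cells (ILC2) sorted from mouse thymus. Members were taken by gene symbol, namely genes of the Nduf a, b, c, s and v families, Sdha to Sdhd, the Uqcr genes, the Cox4 to Cox8 families and the Atp5 genes. This gave 79 of the 10913 genes in the table. By complex they were 34 genes of complex I, 4 of complex II, 7 of complex III, 16 of complex IV and 17 of complex V, with 1 pseudogene, Ndufs5-ps, whose symbol also matched. Ndufa4, named after complex I, was counted with complex IV, where its protein is now placed. The 8 libraries came from young untreated male mice, 4 from Il25 KO animals, which lack the cytokine gene Il25, and 4 from age-matched WT animals. Il25 itself was not analysed here, so the genotype labels were not checked against it. The sources used here do not say how the Il25 allele was made, and the labels do not say whether each replicate came from its own animal, so p-values measure the spread between these libraries.

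The respiratory chain passes electrons from NADH and succinate to oxygen and pumps protons across the inner mitochondrial membrane. Complexes I and II feed electrons to ubiquinone, complex III hands them to cytochrome c, complex IV reduces oxygen, and complex V (ATP synthase) uses the proton gradient to make ATP. Complexes I, III, IV and V combine subunits encoded in the nucleus with others encoded in mitochondrial DNA, while complex II is nuclear throughout. The mitochondrially encoded subunits were not analysed here. ILC2 are tissue-resident lymphocytes that make type 2 cytokines, and IL-25 is one of the signals that activate them.

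The nuclear genes are scattered over the genome and depend on shared regulators. Members with a single GENCODE M21 position, 75 of the 79, lay on 19 chromosomes, with at most 7 on one. Nuclear respiratory factor 1 (NRF1), the ETS factor GABP and YY1 are known to bind promoters of such genes. RefSeq promoter windows of GRCm38.p6, from 250 bases before to 50 after the transcript start, were at hand for 65 members. They were searched on both strands for CCGGAAG (ETS), AAGATGGC (YY1) and the NRF1 motif, a near-palindrome whose matches can be read in the Cox6a1 stretch printed here. The ETS letters were present for 17 of the 65 members (26.2%), against 23.2% of the 7324 tested genes with a window and 9.93% of all 27025 genes. The NRF1 letters were present for 16 members (24.6%), against 12.9% of tested genes and 5.19% of all genes. The YY1 letters were present for 10 members (15.4%), against 5.91% and 3.19%. In all, 37 members held at least 1 of the 3 motifs. A match is a description of the letters and not a binding site.

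Printed next are stretches from 180 bases before to 30 after the start for 4 members whose levels are described here, with motif matches in capitals. They show an ETS match next to the start (Cox8a, chr19:7217587-7217796), a YY1 and an ETS match (1 of the windows of Atp5j, chr16:84834947-84835156), NRF1 and ETS matches together in the most abundant member (Cox6a1, chr5:115348929-115349138) and no match (Uqcr10, chr11:4704315-4704524). All 4 lie on the minus strand and are written 5′ to 3′ in the direction of transcription.
Cox8a: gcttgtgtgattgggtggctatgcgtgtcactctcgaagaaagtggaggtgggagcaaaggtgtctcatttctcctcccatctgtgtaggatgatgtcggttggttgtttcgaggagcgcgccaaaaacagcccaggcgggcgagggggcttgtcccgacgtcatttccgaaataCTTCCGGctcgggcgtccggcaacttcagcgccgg
Atp5j: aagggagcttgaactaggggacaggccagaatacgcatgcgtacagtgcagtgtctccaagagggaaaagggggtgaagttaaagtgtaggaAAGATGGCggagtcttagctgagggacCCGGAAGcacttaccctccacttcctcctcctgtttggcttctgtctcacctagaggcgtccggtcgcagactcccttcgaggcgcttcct
Cox6a1: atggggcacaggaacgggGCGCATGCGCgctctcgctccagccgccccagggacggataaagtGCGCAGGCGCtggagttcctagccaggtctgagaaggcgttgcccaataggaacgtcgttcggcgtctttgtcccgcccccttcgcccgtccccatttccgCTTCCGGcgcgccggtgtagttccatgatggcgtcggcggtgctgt
Uqcr10: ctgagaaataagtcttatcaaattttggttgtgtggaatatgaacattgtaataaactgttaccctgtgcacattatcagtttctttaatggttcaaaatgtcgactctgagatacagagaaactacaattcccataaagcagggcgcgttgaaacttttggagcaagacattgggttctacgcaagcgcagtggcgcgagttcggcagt
In Cox8a the ETS match began 5 bases before the start on the other strand, and the whole window held a second match 32 bases after it. In Cox6a1 an NRF1 match that reads the same on both strands began 162 bases before the start, another 117 bases before it on the other strand, and the ETS match 16 bases before it. Atp5j shares its stretch with Gabpa, the gene of the DNA-binding chain of GABP, which is transcribed the other way. The members with an ETS match had a median log2 fold change of -0.16 in KO over WT, and those without one -0.10. The corresponding medians were -0.09 and -0.11 for NRF1 and -0.14 and -0.10 for YY1.

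The libraries held 1915365 to 3250718 unique molecular identifiers (UMIs), counted at the 3′ ends of polyadenylated transcripts. Levels are given as CPM, a gene's UMIs relative to the library total after scaling by TMM factors. A 3′ count gives 1 UMI per captured molecule whatever the transcript length, so levels of different genes are set side by side on this scale without division by length. Of 12 ILC2 markers 9 were listed, with a summed level of 1974 to 2134 CPM in the KO and 2031 to 2177 CPM in the WT libraries, and Rora, Il1rl1 and Klrg1 were not analysed here. Thy1, which T cells share, held most of that sum, with means of 1206 CPM in KO and 1347 CPM in WT. Of the 8 ILC2 markers tested 7 lay above 0, with a median log2 fold change of 0.17, 1 higher (Areg) and 0 lower at an unadjusted p under 0.05, and 0 called. Gata3, a factor that ILC2 and T cells need, stood at 49.0 to 82.3 CPM. Il17rb, a chain of the IL-25 receptor, stood at 169.9 to 191.7 CPM in the KO and 146.7 to 162.0 CPM in the WT libraries (edgeR adjusted p = 0.460). Il17rb and Areg were the 2 ILC2 markers higher in KO without overlap, where 2.92% of tested genes were. Icos stood at 0.0 to 2.9 CPM. Thymocyte and T cell markers, all 17 listed, summed to 4300 to 4753 CPM in the KO and 3964 to 5405 CPM in the WT libraries, and the highest sum belonged to WT replicate 1. That library stood apart, with Cd4 at 78.7 CPM, Cd8a at 81.7 CPM and Cd8b1 at 356.6 CPM, where the others held at most 6.5, 12.3 and 65.2 CPM. Among these markers Dntt, the terminal transferase of immature lymphocytes, stood at 1835.3 to 2551.9 CPM, the highest of the list, while Rag1 stood at 20.9 to 75.7 CPM and Rag2 at 1.3 to 4.7 CPM. The cells are called ILC2 as labelled, and the libraries also held transcripts of thymocyte genes. The thymocyte and T cell median log2 fold change was -0.26 over 15 tested genes, with 10 below 0 and 0 called, while their summed level had a KO to WT ratio of 1.02. At an unadjusted p under 0.05, 5 of the 15 were lower and 2 higher in KO, where 5.71% and 5.12% of tested genes were. Cd3d, Ptcra and Cd8b1 were lower and Dntt higher in KO without overlap, where 2.31% and 2.92% of tested genes were. Cd79b of 4 B cell markers was listed, at 51 to 61 CPM, and Gzma of 5 NK cell markers, at 444 to 626 CPM in the KO and 514 to 680 CPM in the WT libraries. Gzma had a log2 fold change of -0.31 ± 0.13 and Lyz2, a macrophage gene, 0.51 ± 0.20 (SE), with edgeR adjusted p of 0.385 and 0.355. The part of other cell types in the results was not tested beyond the values without WT replicate 1 and with a thymocyte covariate. The listed markers of macrophages, monocytes and dendritic cells (2 of 6) summed to 18 to 36 CPM and those of thymic epithelium (2 of 5) to 6 to 14 CPM. In sorted samples, fewer cells of a type and less RNA per cell cannot be told apart.

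The subunit genes were abundant. Their median level over the 8 libraries was 386 CPM, against 21.5 CPM over all listed genes. Of the 79 members, 7 stood above 1000 CPM, 58 between 100 and 1000 CPM and 8 below 50 CPM. The 5 most abundant members held 22.5% of all member UMIs on this scale. Cox6a1, a small subunit of cytochrome c oxidase, led with 1862 CPM and ranked 73 in the whole table. Atp5g3, one of 3 genes for the c-ring of ATP synthase, followed with 1840 CPM. Atp5b, the catalytic beta subunit of the F1 head, stood at 1642 CPM, Cox4i1 at 1478 CPM and Cox5a at 1384 CPM. The upper end of the order was thus held by complexes IV and V.

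**Figure D1:**
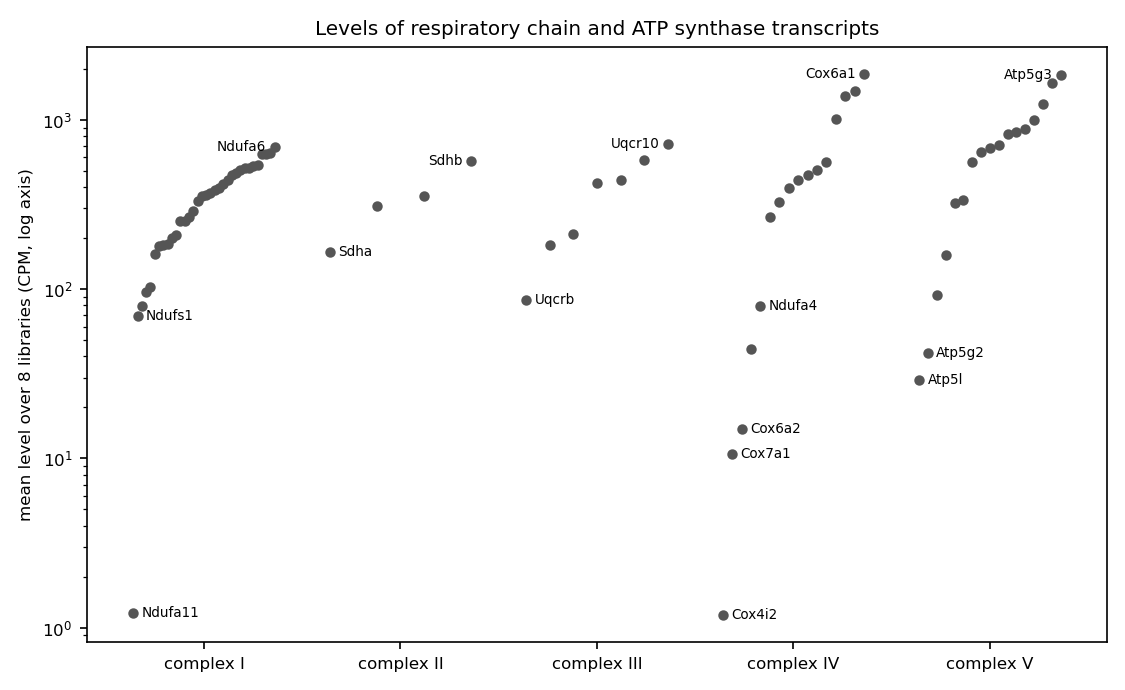
Mean level of each member over the 8 libraries, in CPM on a log axis, by complex. Each of the 78 points is a gene, and the pseudogene is not drawn. Complexes IV and V hold the 7 members above 1000 CPM, and Ndufa11 and Cox4i2 lie near 1 CPM.

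Isoform pairs were uneven. Cox4i1 is the common form of subunit 4 and Cox4i2 a form known for lung and for low oxygen. Cox4i1 held 30687 UMIs over the 8 libraries where Cox4i2 held 26. Cox6a1 held 38754 UMIs and its heart and muscle form Cox6a2 held 310, a ratio of 125. The ubiquitous Cox7a2 held 5595 UMIs and its heart and muscle form Cox7a1 held 220, a ratio of 25.4 that ranged from 18.8 to 37.2 over libraries. Cox6b1 exceeded its testis form Cox6b2 with 10581 against 932 UMIs. Among the c-ring genes, which encode the same mature protein, Atp5g3 held 38383 UMIs, Atp5g1 11743 and Atp5g2 876. The Atp5g3 to Atp5g1 ratio had a mean of 3.23 in KO and 3.33 in WT. Every library thus had the common form as the main one in these pairs.

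A few members of the core machinery were scarce in the counts. Ndufa11, a membrane arm subunit of complex I, held 26 UMIs over the 8 libraries and was not tested. Atp5l, the g subunit of ATP synthase, stood at 23.7 to 35.2 CPM, and Ndufa4 at 38.4 to 114.8 CPM. Several genes of these families have near-identical copies in the genome, and the counting of reads with several matches was not described in the sources used here, which leaves such levels uncertain. This was not tested for any member. For 15 of the members with a position the annotated gene overlapped another listed gene, among them Atp5j with Gabpa, and nothing in the sources used here gives the strand setting of the counting.

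The comparison of KO with WT asks which transcripts of thymic ILC2 differ when IL-25 is missing. Most subunit genes had slightly lower values in KO, and none passed the edgeR test. Of 77 members tested, 63 had a log2 fold change below 0, where 50.5% of the 9016 tested genes did. Their median log2 fold change was -0.12, against 0.00 over all tested genes, and single members ranged from -0.79 to 0.20. No member had an edgeR adjusted p under 0.05, a level that 0.211% of tested genes reached, and DESeq2 and limma-voom called 0 members as well. At an unadjusted p under 0.05, 11 members were lower and 0 higher in KO, where 5.71% and 5.12% of tested genes were. As a share, the 11 were 14.3% of the tested members. The groups did not overlap for 5 members, all lower in KO, where 2.31% of tested genes were separated that way and 2.92% with KO higher. Of the members, 12 were lower and 0 higher at p under 0.05 in the authors' deposited table, and their lowest adjusted p there was 0.147. That table comes from the same counts, and its share of all genes at that level is not given here. An adjusted p under 0.05 was held there by 0 members and by 36 of all 10913 genes.

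The count of 11 changed with the libraries included. Leaving out KO replicate 1 gave 7, leaving out WT replicate 2 gave 6 and leaving out KO replicate 2 gave 18. The share of all tested genes that were lower at that level moved as well. It was 4.3%, 3.6% and 5.6% in these fits, against 5.7% with every library. Without KO replicate 2, Atp5mpl passed with an edgeR adjusted p of 0.0275. Without WT replicate 1, the library with the most Cd4 and Cd8 transcripts, the count was 9 and 62 members lay below 0, and with the mean of the thymocyte and T cell genes as covariate it was 8 and 63. Of all tested genes 6.0% and 6.1% were lower in those fits. Genes of heat shock and dissociation stress had higher values in KO, with a summed level of 30531 to 39457 CPM in the KO and 20949 to 30005 CPM in the WT libraries and no overlap between the groups. Of the 11 genes in this list 10 were tested, 6 were higher at an unadjusted p under 0.05 and 0 were called. Of 20 tested immediate early genes 8 were called higher in KO (edgeR adjusted p under 0.05), where 16 of all 9016 tested genes were. With the mean log2 level of the heat shock genes as covariate the count was 5 lower and 3 higher, 51 of 77 members lay below 0 and their median was -0.09. In that fit 5.7% of all tested genes were lower. That covariate differs between the groups, and with it the calls over all tested genes went from 19 to 0. The log2 fold changes with it were -0.55 for Atp5j, -0.35 for Ndufa13 and -0.31 for Ndufa7, no closer to 0 than without it. Other members moved toward 0, with -0.349 for Cox8a, -0.24 for Atp5mpl and -0.089 for Cox7b. Without the covariate these had -0.479, -0.565 and -0.329. The part of the heat shock genes in the result cannot be told apart from genotype by this fit.

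**Figure D2:**
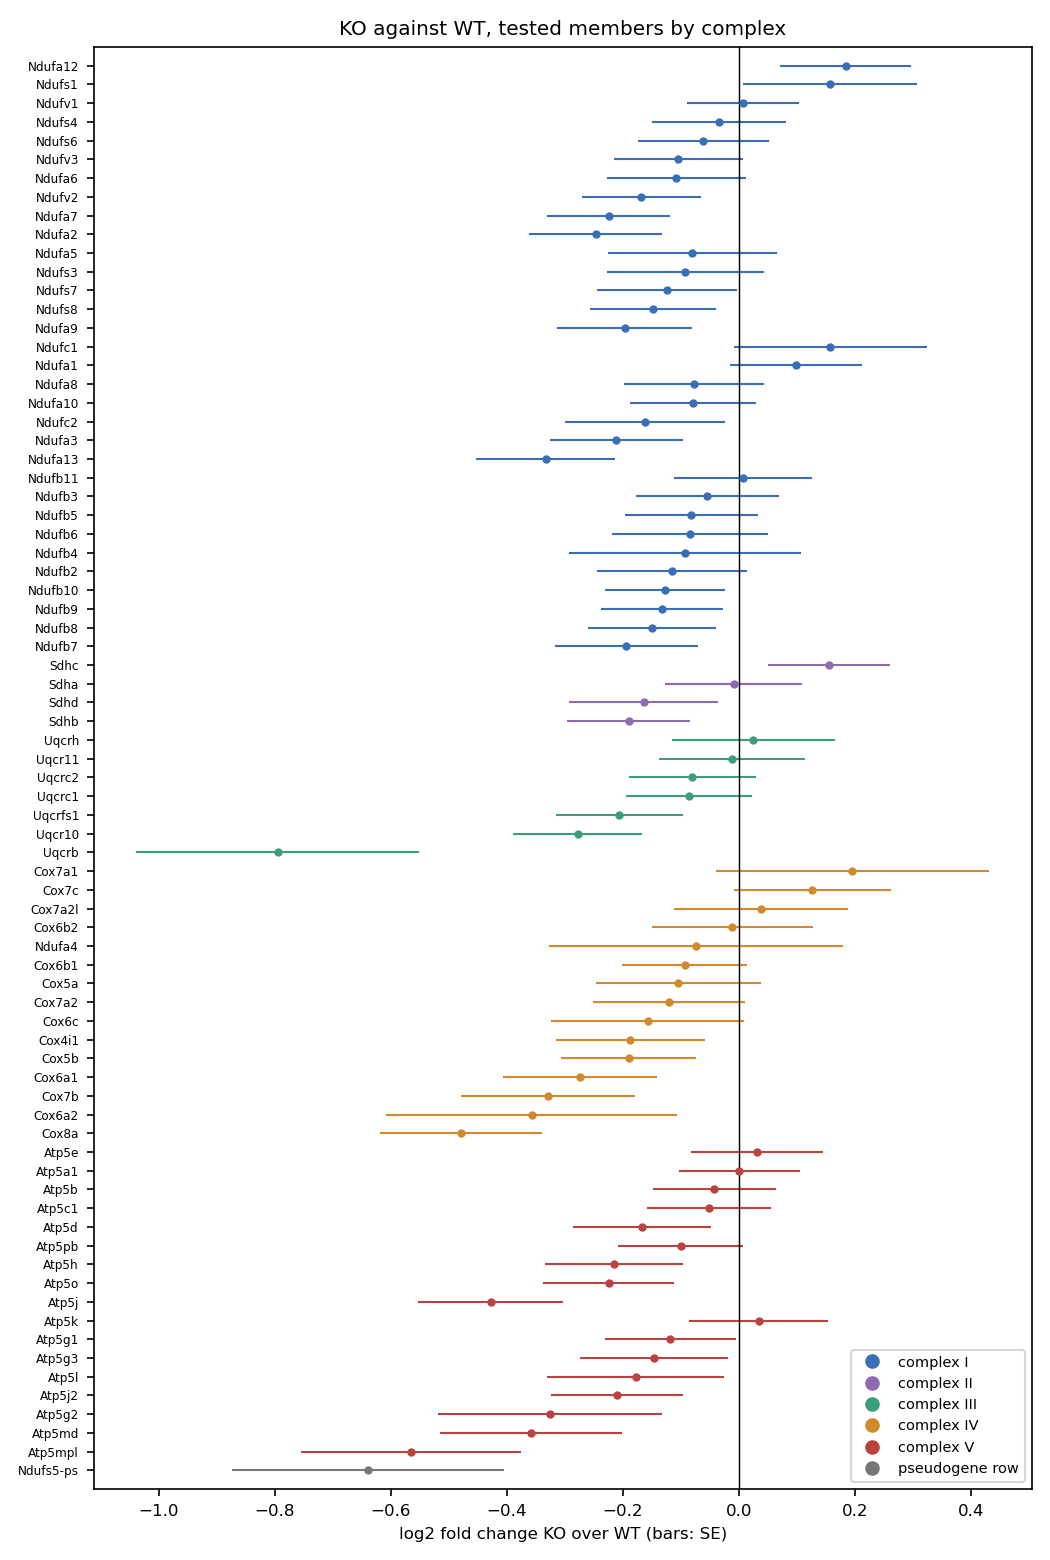
Log2 fold change of KO over WT for 76 of the 77 tested members, ordered by complex and module. Points are edgeR estimates, bars are SE, and the vertical line marks 0. Of the 76 points 62 lie left of 0, and Uqcrb lies farthest left at -0.79.

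The summed level of 3 of the 4 KO libraries lay below every WT library. All 79 members together stood at 33729, 38373, 30884 and 36242 CPM in KO replicates 1 to 4 and at 37675, 39880, 37249 and 37794 CPM in WT replicates 1 to 4. KO replicate 2 lay inside the WT range, and the other KO libraries lay below it. The means were 34807 ± 3231 CPM in KO, against 38150 ± 1177 CPM in WT (SD, n = 4 each), a ratio of 0.912. KO libraries spread more widely than WT libraries. Across the 77 tested members, KO replicate 3 held the lowest value for 32 and KO replicate 1 for 19. WT replicate 2 held the highest value for 24 members and the lowest for 0, while KO replicate 2 held the highest for 21. The median deviation of the members from their own mean was -0.16 in KO replicate 3, -0.09 in KO replicate 1 and 0.14 in WT replicate 2 on the log2 scale, where all tested genes had medians of 0.00 to 0.01.

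**Figure D3:**
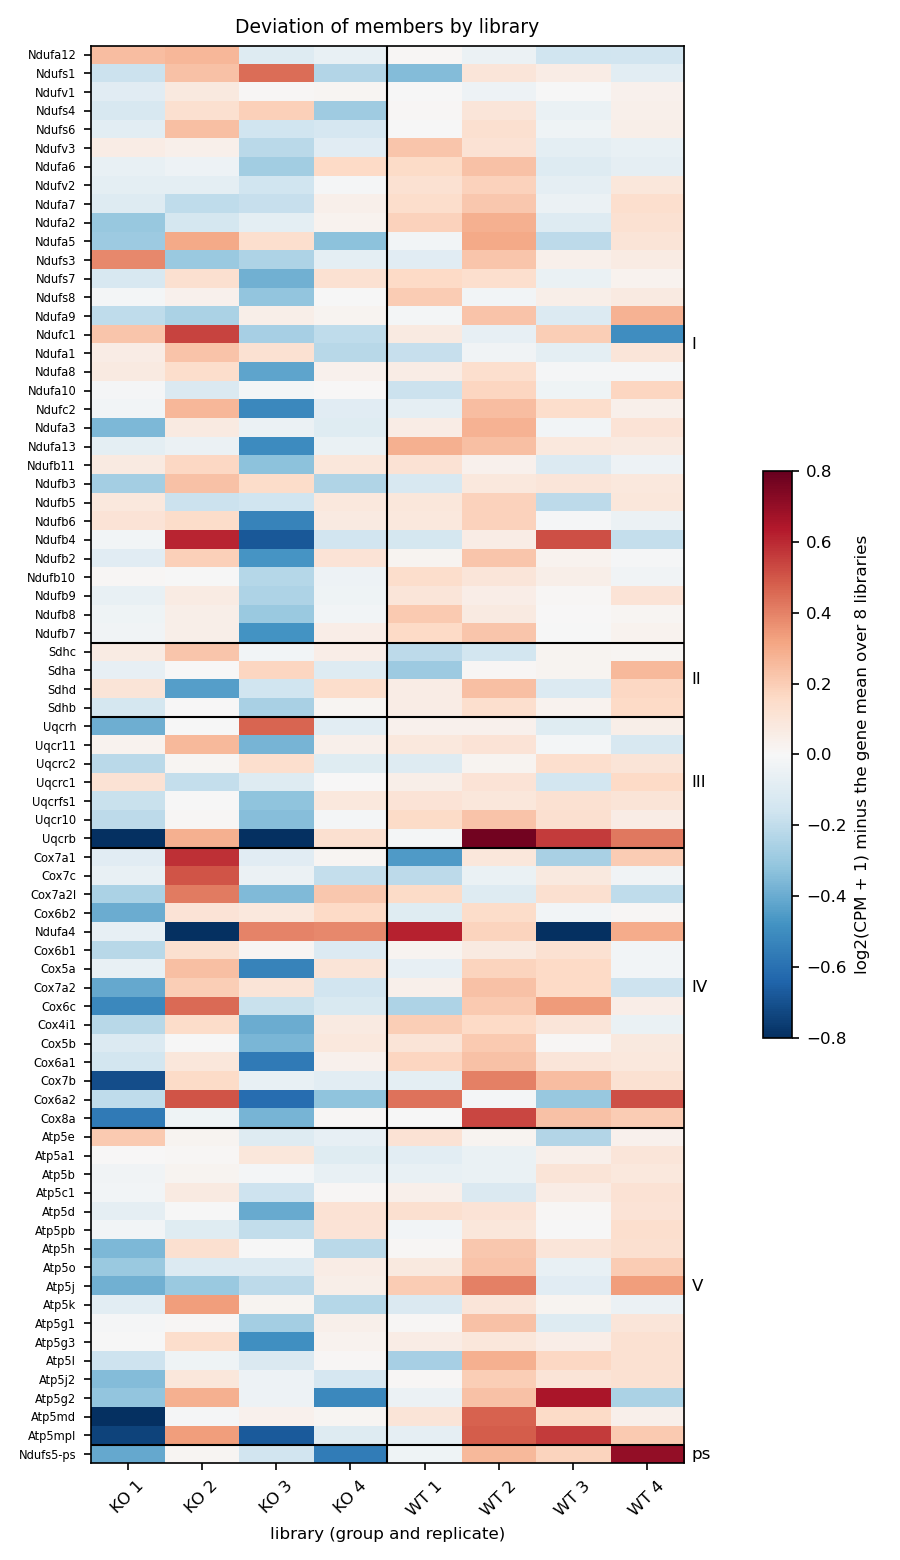
Deviation of log2(CPM + 1) from each gene's mean over the 8 libraries, for 76 of the 77 tested members (rows, grouped by complex, ps for the pseudogene) and the libraries (columns). Colours are limited to ±0.8. Of all 77, KO 3 and KO 1 hold the lowest value of 32 and 19, and WT 2 and KO 2 the highest of 24 and 21.

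Complex I takes electrons from NADH. Its 33 tested members had a median log2 fold change of -0.10, with 27 below 0, 3 lower at an unadjusted p under 0.05 and 0 called. The 3 were 9.09% of its tested members, where 5.71% of all tested genes were lower. The summed level was 11351, 12252, 9844 and 11599 CPM in KO, against 12421, 12924, 11558 and 11915 CPM in WT. The groups overlapped, with KO replicates 2 and 4 above WT replicate 3. The 10 genes of the N module, which oxidises NADH, had a median of -0.08. The 6 genes of the Q module, where ubiquinone binds, had a median of -0.12 and all lay below 0. The membrane arm, which pumps protons, had medians of -0.08 in its proximal part (7 tested) and -0.10 in its distal part (10 tested).

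Ndufa13, also known as GRIM-19, is a membrane arm subunit that lies on chromosome 8 from 69894180 to 69902558 (GENCODE M21, GRCm38). It stood at 594, 607, 442 and 605 CPM in the KO libraries and at 764, 743, 667 and 658 CPM in WT. All 4 KO libraries lay below all 4 WT libraries, and KO replicate 3 was the lowest by far. The log2 fold change came to -0.33 ± 0.12 (SE), with an edgeR adjusted p of 0.296. Ndufa2 and Ndufa7, accessory subunits of the N module, came to log2 fold changes of -0.25 ± 0.11 and -0.22 ± 0.11 (SE), at edgeR adjusted p of 0.442 and 0.459. Ndufa2 ranged from 389 to 489 CPM in KO and from 446 to 586 CPM in WT, and Ndufa7 from 379 to 448 CPM and from 423 to 506 CPM. In both genes the groups overlapped only through the highest KO values and WT replicate 3. Ndufa3, a small membrane arm subunit, had -0.21 ± 0.11 (SE, edgeR adjusted p = 0.526). The highest value of the complex was that of Ndufa12, an accessory subunit of the N module, at 0.18 ± 0.11 (SE, edgeR adjusted p = 0.579).

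The conserved core subunits of complex I, which carry the flavin and the iron-sulfur clusters or bind ubiquinone, had a median of -0.12, and the other tested subunits -0.10. Ndufv1, which binds NADH, stood at 209 ± 10.1 CPM in KO, against 208 ± 4.24 CPM in WT (SD, n = 4 each). Its log2 fold change of 0.01 ± 0.10 (SE) changed sign when log2 total count was a covariate. Ndufs1, the largest core subunit, stood at 72.9 ± 16.9 and 65.4 ± 8.90 CPM and had a log2 fold change of 0.16 ± 0.15 (SE). Ndufv2 and Ndufs8, which carry iron-sulfur clusters, had log2 fold changes of -0.17 ± 0.10 and -0.15 ± 0.11 (SE). Ndufa6, the most abundant gene of the complex, stood at 664 ± 82.2 CPM in KO, against 715 ± 83.3 CPM in WT (edgeR adjusted p = 0.786). Core and accessory genes thus had medians close to each other.

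Complex II, succinate dehydrogenase, is also an enzyme of the TCA cycle. Its genes had values on both sides of 0, with 3 of 4 below it, and 0 of 4 reached an unadjusted p under 0.05. The summed level was 1369, 1367, 1280 and 1428 CPM in the KO libraries and 1350, 1469, 1387 and 1529 CPM in WT, with overlap. Sdhb, the iron-sulfur subunit, stood at 514, 566, 473 and 571 CPM in the KO libraries and at 591, 622, 578 and 633 CPM in WT. The groups did not overlap, and the log2 fold change came to -0.19 ± 0.11 (SE, edgeR adjusted p = 0.535). Sdhc, a membrane anchor, had a value above 0, with 374 ± 26.7 CPM in the KO and 335 ± 26.6 CPM in the WT libraries and a log2 fold change of 0.15 ± 0.11 (SE). Sdhd, the other anchor, had -0.16 ± 0.13 (SE). Sdha, the flavoprotein, stood at 164 ± 14.5 and 165 ± 25.4 CPM, and the sign of its log2 fold change of -0.01 ± 0.12 (SE) turned with library size alone as the scaling.

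Complex III, the cytochrome bc1 complex, held the widest spread. Its 7 tested members had a median log2 fold change of -0.09, with 6 below 0. The summed level was 2312, 2720, 2371 and 2613 CPM in KO, against 2761, 2889, 2722 and 2702 CPM in WT, and KO replicate 2 lay inside the WT range. Uqcrb, a small subunit that takes part in ubiquinone binding, lies on chromosome 13 from 66900617 to 66905378. It stood at 31.8, 95.1, 41.8 and 85.4 CPM in the KO libraries and at 77.0, 134, 116 and 105 CPM in WT. KO replicates 1 and 3 lay far below all other libraries, while KO replicates 2 and 4 lay above WT replicate 1. The log2 fold change came to -0.79 ± 0.24 (SE), the lowest of all members, with an edgeR adjusted p of 0.223.

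The other bc1 genes were less variable. Uqcr10, which encodes a small subunit, stood at 615, 716, 561 and 703 CPM in the KO libraries and at 792, 834, 777.2 and 741 CPM in WT. All 4 KO libraries lay below all 4 WT libraries, with a log2 fold change of -0.28 ± 0.11 (SE, edgeR adjusted p = 0.371). Uqcrfs1, the Rieske iron-sulfur protein, stood at 388, 438, 351 and 466 CPM in the KO libraries and at 473, 468, 478 and 473 CPM in WT. The WT libraries were almost equal and all lay above the KO libraries, and the log2 fold change came to -0.21 ± 0.11 (SE, edgeR adjusted p = 0.513). The core proteins Uqcrc1 and Uqcrc2 had -0.09 ± 0.11 and -0.08 ± 0.11 (SE). Uqcrh, the hinge protein, was highest in KO replicate 3 at 576 CPM, a library in which most members were low. Cyc1, cytochrome c1 of the same complex, has a symbol outside the rule and had a log2 fold change of -0.13 ± 0.12 (SE).

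Complex IV, cytochrome c oxidase, had a median log2 fold change of -0.12 over 15 tested members, with 12 below 0, 2 lower at an unadjusted p under 0.05 and 0 called. The 2 were 13.3% of the tested members of complex IV, where 5.71% of all tested genes were lower. Its summed level was 7582, 9899, 6925 and 8933 CPM in KO, against 9144, 9987, 9504 and 8878 CPM in WT. KO replicates 2 and 4 lay inside the WT range and KO replicates 1 and 3 lay well below it. Cox8a, the common form of the smallest subunit, lies on chromosome 19 from 7215153 to 7217616 and had the lowest p of all members. It stood at 292, 423, 334 and 435 CPM in the KO libraries and at 431, 628, 509 and 498 CPM in WT. Only KO replicate 4 exceeded a WT library, replicate 1. The log2 fold change came to -0.48 ± 0.14 (SE), a 1.39-fold lower level in KO, with an edgeR adjusted p of 0.198.

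Cox7b, a small subunit on chromosome X from 106015700 to 106022450, stood at 194, 354, 305 and 300 CPM in the KO libraries and at 301, 421, 377 and 346 CPM in WT. The groups overlapped and KO replicate 1 was the lowest library (log2 fold change -0.33 ± 0.15, SE, edgeR adjusted p = 0.434). Without that library the Cox7b value was -0.18. Cox6a1 stood at 1658, 1962, 1243 and 1880 CPM in the KO libraries and at 2075, 2160, 1967 and 1949 CPM in WT. Only KO replicate 2 overlapped WT, and the log2 fold change came to -0.27 ± 0.13 (SE, edgeR adjusted p = 0.463), and -0.15 without KO replicate 3. Cox5b and Cox4i1 had -0.19 ± 0.12 and -0.19 ± 0.13 (SE). Cox7c and Cox7a2l, the latter a factor that joins complexes III and IV into supercomplexes, had values above 0 of 0.13 ± 0.14 and 0.04 ± 0.15 (SE). The second of these turned below 0 with log2 total count as a covariate.

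None of the scarce isoforms that were tested reached an unadjusted p under 0.05. Cox6a2 had a log2 fold change of -0.36 ± 0.25, Cox7a1 0.20 ± 0.24 and Cox6b2 -0.01 ± 0.14 (SE), the last turning above 0 with library size alone. The abundant forms Cox6b1 and Cox7a2 had -0.09 ± 0.11 and -0.12 ± 0.13 (SE). Ndufa4 had -0.07 ± 0.25 (SE) and varied within both groups, from 40.5 CPM in KO replicate 2 to 98.4 CPM in KO replicate 3 and from 38.4 CPM in WT replicate 3 to 115 CPM in WT replicate 1.

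**Figure D4:**
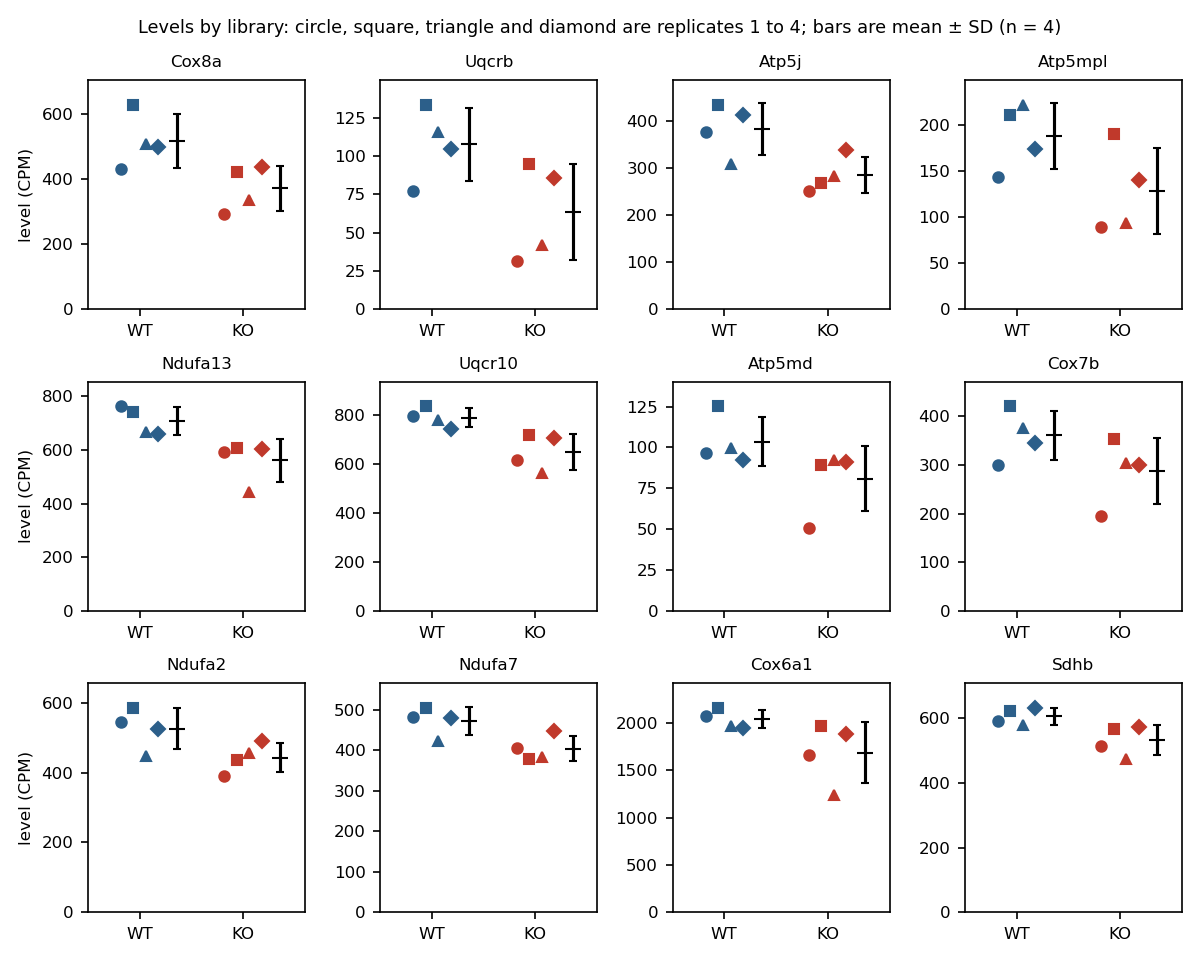
Levels in CPM of 12 members in the 4 WT and the 4 KO libraries, each axis starting at 0. Symbols are replicates and bars are mean ± SD. KO libraries of Ndufa13, Uqcr10, Atp5md and Sdhb all lie below the WT libraries, and in the other panels at least 1 KO library reaches the WT range.

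Complex V had the lowest median of the 5 complexes, -0.17 over 17 members, with 14 below 0, 3 lower at an unadjusted p under 0.05 and 0 called. The 3 were 17.65% of the members of complex V, where 5.71% of all tested genes were lower. Its summed level was 11108, 12125, 10455 and 11663 CPM in KO, against 11991, 12599, 12068 and 12755 CPM in WT. KO replicate 2 lay inside the WT range. Its sectors had unequal medians. The F1 head, the catalytic part, had a median of -0.04 over 5 genes, the peripheral stalk, which holds the head still, -0.22 over 4 genes, and the membrane sector with the c-ring -0.19 over 8 genes. The difference between the sectors was not tested.

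In the head the alpha and beta subunits had nearly equal levels in both groups. Atp5a1, the alpha subunit, stood at 826 ± 43.9 CPM in the KO and 825 ± 48.1 CPM in the WT libraries, and Atp5b at 1619 ± 37.6 and 1666 ± 101.1 CPM (SD, n = 4 each). Their log2 fold changes were 0.00 ± 0.10 and -0.04 ± 0.11 (SE). Atp5c1, Atp5d and Atp5e, the gamma, delta and epsilon subunits, had -0.05, -0.17 and 0.03. Atp5d varied most in KO, from 932.1 CPM in KO replicate 3 to 1334.3 CPM in KO replicate 4.

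In the peripheral stalk Atp5j, which encodes coupling factor 6 and lies on chromosome 16 from 84827866 to 84835625, stood at 251, 267, 283 and 338 CPM in the KO libraries and at 377, 434, 308 and 413 CPM in WT. Only KO replicate 4 exceeded a WT library, replicate 3. The log2 fold change came to -0.43 ± 0.13 (SE), a 1.34-fold lower level in KO, with an edgeR adjusted p of 0.204. Gabpa, which shares its promoter region, stood at 31.6 ± 7.30 CPM in KO, against 31.8 ± 3.87 CPM in WT (SD, n = 4 each), giving a log2 fold change of 0.01 ± 0.17 (SE). Atp5o, the oligomycin sensitivity protein that joins stalk and head, had -0.22 ± 0.11 (SE, edgeR adjusted p = 0.479). Atp5h and Atp5pb, the d and b subunits, had -0.21 ± 0.12 and -0.10 ± 0.11 (SE).

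In the membrane sector the lowest values belonged to small accessory proteins. Atp5mpl, which encodes a small proteolipid of the membrane part and lies on chromosome 12 from 111961375 to 111966977, stood at 89.5, 190, 93.9 and 140 CPM in the KO libraries and at 143, 211, 222 and 174 CPM in WT. KO replicates 1 and 3 were low, as for Uqcrb, while KO replicate 2 lay among the WT libraries. The log2 fold change came to -0.56 ± 0.19 (SE, edgeR adjusted p = 0.260). Atp5md, known for a role in the pairing of ATP synthases, stood at 50.9, 89.4, 92.2 and 90.8 CPM in the KO libraries and at 96.8, 125, 99.9 and 92.4 CPM in WT. The groups were separated by a small margin, and the log2 fold change came to -0.36 ± 0.16 (SE, edgeR adjusted p = 0.410), and -0.19 without KO replicate 1. The c-ring genes Atp5g1, Atp5g2 and Atp5g3 had -0.12 ± 0.11, -0.33 ± 0.19 and -0.15 ± 0.13 (SE), and Atp5k and Atp5j2, the e and f subunits, 0.03 ± 0.12 and -0.21 ± 0.11. With the heat shock mean as a covariate the value of Atp5g2 turned to 0.21.

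The pseudogene row Ndufs5-ps held 217 UMIs over the 8 libraries, 6.3 to 9.9 CPM in KO, against 9.5 to 16.5 CPM in WT, for a log2 fold change of -0.64 ± 0.24 (SE, edgeR adjusted p = 0.318). It can take reads of its parent gene Ndufs5, whose symbol would match the rule but is not among the listed genes. Without it 10 members were lower at an unadjusted p under 0.05.

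Related genes of the pathway were read from lists in the same fit, and 0 genes of any of these 6 lists were called. Of 38 tested assembly factors, which build the complexes, 24 lay below 0 and 6 were lower and 0 higher at an unadjusted p under 0.05, with a median log2 fold change of -0.07. The 6 were 15.8% of the list, where 5.71% of all tested genes were lower. Coa3 and Cox19, which act in the assembly of complex IV, had -0.36 ± 0.10 and -0.41 ± 0.13 (SE) and edgeR adjusted p of 0.194 and 0.246, and the groups were separate in both. In this list 3 genes were lower in KO without overlap, where 2.31% of all tested genes were. The 17 TCA cycle genes had a median of -0.01 and 1 was lower, Dlat, a subunit of pyruvate dehydrogenase, at -0.58 ± 0.27 (SE, edgeR adjusted p = 0.454). Idh3b, a subunit of isocitrate dehydrogenase, had -0.12 ± 0.10 (SE). The 9 carriers and porins had a median of -0.06 and 1 was lower, Slc25a4, an ADP/ATP carrier, at -0.28 ± 0.11 (SE, edgeR adjusted p = 0.393), while Vdac3, a porin of the outer membrane, had -0.21 ± 0.11 (SE). The TCA cycle genes thus had a median nearer to that of all genes than the subunit genes had, a difference that was not tested.

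Protein import, which includes the heat shock genes Hspd1 and Hspe1, had a median of -0.10 over 23 tested genes and a KO to WT ratio of summed levels of 1.049, with 13 below 0, 2 lower and 1 higher at an unadjusted p under 0.05. Of all tested genes 5.71% were lower and 5.12% higher at that level. Tomm22, a receptor of the outer membrane translocase, stood at 151 ± 27.3 CPM in KO, against 222 ± 20.1 CPM in WT (SD, n = 4 each). This gave a log2 fold change of -0.56 ± 0.12 (SE, edgeR adjusted p = 0.0820), and Timm13 had -0.31 ± 0.12 (SE). The cytochrome c, coenzyme Q and inhibitor list had a median of -0.05 over 16 tested genes. Coq10b, a coenzyme Q binding protein, had 0.44 ± 0.16 (SE, edgeR adjusted p = 0.285) and Coq6, a coenzyme Q hydroxylase, -0.28 ± 0.13 (SE). Ndufab1, a complex I subunit whose symbol lies outside the rule, had -0.25 ± 0.13 (SE).

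The regulators of mitochondrial biogenesis had a median of 0.01 over 12 tested genes, with 0 lower and 1 higher at an unadjusted p under 0.05. Nrf1, Gabpa, Gabpb1, Yy1 and Tfam, the last a factor of mitochondrial DNA transcription, had log2 fold changes of -0.10 ± 0.12, 0.01 ± 0.17, 0.05 ± 0.13, 0.16 ± 0.16 and 0.00 ± 0.28 (SE). Tfb2m, a mitochondrial transcription factor, had -0.49 ± 0.31 (SE). Myc, a growth regulator that was part of this list, had 0.88 ± 0.21 (SE, edgeR adjusted p = 0.0988), with 98.4 ± 39.1 CPM in KO, against 54.1 ± 9.26 CPM in WT (SD, n = 4 each). Ppargc1a was not analysed here.

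Other large sets of short housekeeping transcripts had similar medians. The 94 tested cytosolic ribosomal protein genes had a median log2 fold change of -0.11, with 68 below 0, 19 lower and 4 higher at an unadjusted p under 0.05. Of all tested genes 5.71% were lower and 5.12% higher at that level. The 67 tested mitochondrial ribosomal protein genes had a median of -0.11, with 53 below 0, 6 lower and 0 higher. Their summed level was lowest in KO replicate 3 at 8770 CPM and highest in WT replicate 2 at 11504 CPM, the same libraries as for the respiratory chain. The cytosolic ribosomal sum had other extremes, KO replicate 1 at 234134 CPM and WT replicate 1 at 291196 CPM. KO replicate 4 stood next to the highest at 290204 CPM. The KO to WT ratio of summed levels was 0.912 for both the respiratory chain members and the mitochondrial ribosomal genes and 0.918 for the cytosolic ribosomal genes.

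Transcript length moved with the difference over the whole table. Annotated transcripts of the members were short, with a median of 723 bases for 74 of the 77 tested members, against 2644 bases for 8653 tested genes. Among all other tested genes with transcripts under 800 bases, 375 genes, the median log2 fold change was -0.08, 65.9% lay below 0 and 11.2% were lower at an unadjusted p under 0.05. The 41 members in that class had a median of -0.13, with 85.4% below 0 and 14.6% lower. From 800 to 1500 bases the medians were -0.07 for 1318 other genes and -0.15 for 21 members. From 1500 to 3000 bases they were 0.02 for 3299 other genes and -0.04 for 11 members, and over 3000 bases 0.02 for 3587 other genes, a class with 1 member. Set against other tested genes of the same length class, the median of the members was -0.06, a setting chosen after the data were seen. The part of transcript length in the result was not tested further.

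**Figure D5:**
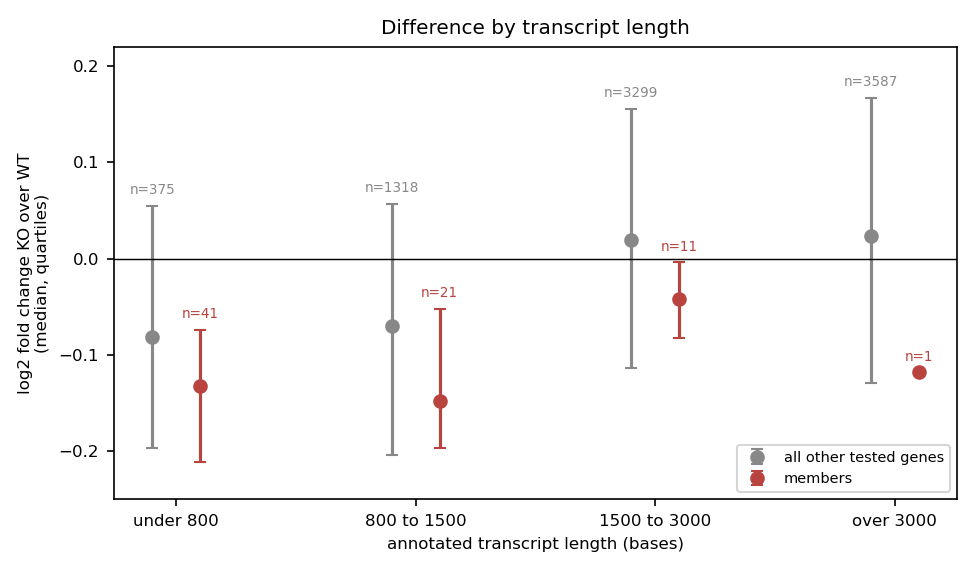
Median log2 fold change of KO over WT with quartiles as bars, by class of annotated transcript length in bases, for members and for all other tested genes. Numbers of genes are printed above the bars. Other genes under 800 bases have a median of -0.08 and members -0.13, and other genes over 3000 bases have a median of 0.02.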

How the data were processed

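Poly(A) RNA of thymic ILC2 was sequenced by MARS-seq, a 3′ method with UMIs, per the labels' protocols. STAR 2.5.2b, HTSeq, DESeq2, cutadapt and bcl2fastq and the build mm10 are listed, without roles or settings, per the submitters' processing notes. The raw counts are UMIs per gene, per the file headers, and were used for all tests. The deposited normalized signal is each raw count over 1 factor per library. The deposited regularized log2 values were not used, and the authors' deposited p-values and log2 fold changes, turned to KO over WT, are quoted as theirs.

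Counts were filtered with filterByExpr (minimum count 10; 9016 genes kept, 1897 removed), scaled by TMM and fitted with edgeR 4.0.16 in R 4.3.3 (quasi-likelihood, group as the only term, Benjamini-Hochberg over all tested genes, threshold 0.05). SE comes from the F statistic. The fit was tested on simulated data. Alternatives used DESeq2 1.42.0, limma 3.58.1, other scalings, filters and covariates, a replicate block and leaving out each library. Named members were the 4 with the lowest p and the most abundant of each complex, the isoform sets and the complex I core, and of the related lists 2 genes each. Values of Uqcrh, Uqcrc2, Cox7c, Cox5a, Ndufa11, Atp5l, Ndufs5-ps, the other ATP synthase genes, Cyc1, Ndufab1 and the regulators were added after their values were seen. Members and lists were chosen with earlier results of these data known. Transcript length is that of the lowest-numbered protein-coding transcript in GENCODE M21. The values of 1 member are not reported here, though it is counted in the totals.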

Additional observations from a re-analysis of the deposited data

Results flagged for a closer look

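Among 88 groups of 4 libraries examined for named members and complex sums, 5 had a library far from the other 3, where chance gives about 1 in 20. Atp5md stood at 50.9 CPM in KO replicate 1 and at 89.4 to 92.2 CPM in the other KO libraries. Cox6b2 stood at 33.3 CPM in KO replicate 1 and at 46.9 to 49.4 CPM in the others. Cox7a1 stood at 16.1 CPM in KO replicate 2 and at 9.7 to 10.5 CPM in the others. In KO replicate 3, Ndufa13 stood at 442.1 CPM, against 593.7 to 606.9 CPM in the others, and Ndufs8 at 296.5 CPM, against 365.7 to 377.3 CPM. All 5 values belong to KO libraries. The share flagged was 5.68%, near the rate of chance, and genes measured in the same libraries are not independent.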

How the results depend on the processing

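The median of the members stayed below 0 under every setting tried, from -0.172 with log2 total count as a covariate to -0.063 against genes of like length, and from -0.157 to -0.08 when 1 library was left out. The number of members called was 0 in all settings except without KO replicate 2, so 0 to 1 over the libraries left out, and with the replicate block. Same-numbered libraries correlated in their deviations at -0.005 to 0.139, and 2 of 4 KO libraries correlated best with their own number, so the numbers were not taken as pairs. With the replicate block 2 members were called, Cox8a and Uqcrb (log2 fold changes -0.48 and -0.85). Members lower at an unadjusted p under 0.05 numbered 5 with the heat shock covariate and 6 to 18 when 1 library was left out. The share of all tested genes was 5.7% with that covariate and 3.6% to 7.4% when 1 library was left out. Of 778 values of 39 named members under alternatives, 24 changed sign and 3 passed the threshold newly, and no sign change concerned a called value. With library size alone these were Cox6b2 (0.017) and Sdha (0.023). With log2 total count as a covariate they were Cox7a2l (-0.145), Ndufa4 (0.002), Ndufv1 (-0.004) and Sdha (0.076). With the heat shock covariate they were Atp5g2 (0.211), Cox6b1 (0.031), Cox6b2 (0.045), Cox7a2 (0.133) and Sdha (0.038), and with the thymocyte and T cell covariate Ndufa4 (0.26). Leaving out 1 library gave -0.068 to 0.108 for Cox6b2, -0.106 to 0.151 for Cox7a2l, -0.316 to 0.127 for Ndufa4, -0.013 to 0.038 for Ndufv1 and -0.096 to 0.084 for Sdha. The cause was not tested. Counts of UMIs limit the scarce members, of which Cox4i2 and Ndufa11 were not tested.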
